A study of Mus musculus with 27 samples.

Results

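The immunoglobulin and plasma cell genes of the mouse colon were taken as all gene rows whose symbol begins with the letters of an immunoglobulin heavy, kappa or lambda constant or variable gene, with at least 10 counts in at least 3 of 27 libraries and with pseudogenes left out, together with Jchain, Pigr, Mzb1 and Tnfrsf17. Of 46078 rows in each count table, 382 carried such letters and 133 of these were pseudogenes, and of the 249 left 89 passed the minimum, so that there were 93 members with the 4 partner genes. The other 160 rows lay under the minimum and 35 of them held no count in any mouse. The members were 40 heavy V segments, 37 kappa V segments, 2 lambda V segments, the heavy constant genes Igha, Ighm, Ighd, Ighg1 and Ighg2b, the kappa constant gene Igkc, the lambda constant genes Iglc1, Iglc2 and Iglc3, the 4 partners, and Ighmbp2. Ighmbp2 shares only the letters of its name with the rest, since it encodes a helicase, and it was left out of every class total.

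RNA was sequenced from scraped colonic epithelium of 27 mice, all male and C57BL/6, with 3 mice in each of 9 groups. One group received sesame oil vehicle. The other 8 received TCDD, a dioxin and ligand of the aryl hydrocarbon receptor (AhR), at 30, 10, 3 or 1 µg/kg or at the lower doses of 0.3, 0.1, 0.03 and 0.01 µg/kg. Every mouse was gavaged at intervals of 4 days from an age of 28 days, 7 gavages in all, and the tissue was taken at day 28, at an age of 56 days. No mouse carried a genetic change, and each library came from its own mouse. The dose series asks how transcript levels change with the amount of TCDD, and all doses share the same 3 vehicle-treated mice.

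In the gut wall, B cells that have finished their maturation become plasma cells and secrete IgA, an antibody built from alpha heavy chains and from kappa or lambda light chains. The J chain joins IgA units into dimers, and the polymeric immunoglobulin receptor Pigr on the basal side of epithelial cells binds these dimers and carries them into the lumen. Each plasma cell clone uses 1 heavy and 1 light V segment, which it assembled in the bone marrow, so that the set of V segments in a tissue reflects which clones are present and how much antibody RNA each one makes. Mice use kappa light chains far more than lambda ones.

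The total count on genes ran from 9305441 to 14371035 per mouse with a median of 11651026. Levels are given as CPM, counts scaled to the size of each library with TMM factors, and before these factors 1 count was worth 0.0696 to 0.107 CPM. The p-values measure the spread between these mice. A gene was called changed at a dose when edgeR's quasi-likelihood test gave an adjusted p under 0.05 (Benjamini-Hochberg over all 16496 genes tested) and the fold was at least 1.5. The barcodes named with the count tables recur, and the libraries were split into 2 index sets on this basis. In accession order, all libraries from the first recurring barcode on were taken as the second set. The labels do not give this split, so the place of each library near its border is inferred. The first set held 16 mice, from vehicle to 0.3 µg/kg and replicate 1 at 1 µg/kg, and the second held the other 11, so that index set and dose are largely confounded. The markers of the scraped layer were checked too, and Epcam, an adhesion protein of epithelial cells, had a mean of 984.5 CPM over all mice. Smooth muscle markers were more uneven, as Myh11, the heavy chain of smooth muscle myosin, ran from 7.15 to 335 CPM between mice.

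The sequences of the lambda genes are shown first because Iglc1 was the one constant gene called at a dose, and because near-identical copies decide which reads could be counted: reads with more than 1 alignment made up 30.7 to 37.1% of each library and were set aside. The 3 lambda constant genes lie on chromosome 16, and the first 240 coding bases of Iglc2 (chr16:19198539-19198853, minus strand, GRCm38) are given with the aligned stretch of Iglc1 (chr16:19061755-19062071) and Iglc3 (chr16:19065368-19065681). Capitals mark letters that differ from Iglc2 or are inserted beside it.
Iglc2: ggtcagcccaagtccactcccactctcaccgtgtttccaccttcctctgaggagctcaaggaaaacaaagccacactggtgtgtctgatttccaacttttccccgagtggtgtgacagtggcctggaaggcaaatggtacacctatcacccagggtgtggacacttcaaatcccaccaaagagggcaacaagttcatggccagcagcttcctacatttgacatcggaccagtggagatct
Iglc1: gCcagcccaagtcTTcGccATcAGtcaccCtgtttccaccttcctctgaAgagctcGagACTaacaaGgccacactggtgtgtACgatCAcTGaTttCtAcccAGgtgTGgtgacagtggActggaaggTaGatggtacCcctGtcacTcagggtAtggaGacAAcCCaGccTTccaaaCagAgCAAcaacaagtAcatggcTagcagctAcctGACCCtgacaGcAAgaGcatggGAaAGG
Iglc3: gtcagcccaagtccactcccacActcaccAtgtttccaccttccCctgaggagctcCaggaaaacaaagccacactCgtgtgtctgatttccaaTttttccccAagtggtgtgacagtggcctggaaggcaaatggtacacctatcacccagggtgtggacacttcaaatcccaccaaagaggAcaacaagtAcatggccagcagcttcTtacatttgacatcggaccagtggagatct
Over their whole coding parts Iglc2 and Iglc3 differed at 11 of 314 aligned bases (96.5% identity), while Iglc1 differed from Iglc2 at 79 of 313 (74.8% identity). The closest other lambda constant gene to Iglc1 was Iglc4, at 86.5% identity. The counts of Iglc2 and Iglc3, which share most of their letters, are therefore uncertain.

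The lambda V segments Iglv1 and Iglv2 were also close to each other, with 11 differences over 351 coding bases (96.9% identity). In mice Iglv1 is joined to the segments before Iglc1 or Iglc3 and Iglv2 mostly to those before Iglc2. The first 240 coding bases of Iglv2 (chr16:19260401-19260844, minus strand, introns left out) and of Iglv1 (chr16:19085017-19085460) are given with the letters of Iglv1 that differ in capitals.
Iglv2: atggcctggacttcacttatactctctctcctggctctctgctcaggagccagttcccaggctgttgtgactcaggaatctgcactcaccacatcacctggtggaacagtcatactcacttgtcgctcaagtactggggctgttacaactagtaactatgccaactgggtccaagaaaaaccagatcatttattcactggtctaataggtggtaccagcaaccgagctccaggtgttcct
Iglv1: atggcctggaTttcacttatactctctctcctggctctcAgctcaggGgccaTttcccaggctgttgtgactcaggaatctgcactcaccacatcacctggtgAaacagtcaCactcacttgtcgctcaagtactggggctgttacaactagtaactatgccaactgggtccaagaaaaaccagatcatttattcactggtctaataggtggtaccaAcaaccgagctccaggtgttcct
The stretch holds 7 of the differences, so the counts of both segments are uncertain too.

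The heavy V segments Ighv1-26 and Ighv1-53 rose at 10 µg/kg and are shown because both belong to the large first family of heavy V segments. The stretch is from Ighv1-26 (chr12:114788372-114788805, minus strand) and Ighv1-53 (chr12:115158403-115158835), with the differences of Ighv1-53 in capitals.
Ighv1-26: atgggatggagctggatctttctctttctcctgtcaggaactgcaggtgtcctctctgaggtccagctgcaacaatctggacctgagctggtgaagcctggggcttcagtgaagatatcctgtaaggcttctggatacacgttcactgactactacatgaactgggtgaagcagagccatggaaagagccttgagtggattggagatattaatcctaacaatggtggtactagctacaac
Ighv1-53: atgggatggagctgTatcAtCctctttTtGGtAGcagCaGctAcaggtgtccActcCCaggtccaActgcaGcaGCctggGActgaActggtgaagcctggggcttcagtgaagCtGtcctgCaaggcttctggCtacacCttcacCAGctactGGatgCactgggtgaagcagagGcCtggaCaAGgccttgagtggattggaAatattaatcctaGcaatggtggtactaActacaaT
They differed at 49 of 351 coding bases, an identity of 86.0%. Each had a closer relative than the other, Ighv1-18 for Ighv1-26 (96.9% identity) and Ighv1-55 for Ighv1-53 (95.4%). Of the other V segments called at a dose, Ighv7-3 was closest to Ighv7-4 (93.9%), Igkv8-27 to Igkv8-19 (90%) and Igkv12-44 to Igkv12-41 (95.7%). The counts of V segments with such near copies are uncertain, and whether the counting used strand is not given in the sources used here.

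Igha was the main heavy chain in every mouse. Its mean level was 189 CPM, and it held between 91.8 and 98.5% of the heavy constant CPM. Igkc, the kappa constant gene, had a mean of 84.6 CPM, and the J chain gene Jchain one of 45.1 CPM. On a scale per length of annotated exons, the mean level was 159 CPM per kb for Igkc, 70.9 for Igha, 17.9 for Jchain and 15.9 for Iglc1. IgM and IgD chains were much lower, with 2.21 CPM per kb for Ighm and 0.737 for Ighd, and the IgG chains lower still, with 0.464 for Ighg1 and 0.221 for Ighg2b. In every mouse Igkc was above Igha and Igha above Jchain on this scale, whereas the order of Jchain and Iglc1 changed between mice. Pigr, which epithelial cells make, stood at 815 CPM per kb.

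The plasma cell genes named with the immunoglobulins were close to the detection limit. Mzb1, a chaperone of the endoplasmic reticulum that helps IgM and IgA secretion, ran from 0.0862 to 1.51 CPM. Tnfrsf17, which encodes the survival receptor BCMA of plasma cells, held between 0 and 9 counts and none in 8 of 27 mice, so it was not tested. The label of plasma cell genes was therefore borne by the immunoglobulin and J chain RNA.

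In the mice given vehicle, Igha stood at 167, 117 and 138 CPM. At 3 µg/kg the mice had 257, 251 and 215 CPM, at 10 µg/kg 273, 212 and 335 CPM, and at 30 µg/kg 334, 126 and 254 CPM. The 15 mice between these groups, from 0.01 to 1 µg/kg, ran from 97.9 to 273 CPM with a median of 142. All 6 mice at 3 and 10 µg/kg were above the highest vehicle-treated mouse, and 2 of 3 at 30 µg/kg were, while replicate 2 at that dose was within the vehicle range.

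Igkc followed the same mice. Its levels were 65.8, 51.8 and 56.5 CPM with vehicle, 122, 107 and 105 CPM at 3 µg/kg, 127, 94.5 and 146 CPM at 10 µg/kg, and 183, 53.6 and 107 CPM at 30 µg/kg. Jchain had 40.0, 31.7 and 26.6 CPM with vehicle, 68.4, 39.4 and 84.3 CPM at 10 µg/kg, and 104, 26.3 and 53.8 CPM at 30 µg/kg. Replicate 2 at 30 µg/kg was the lowest mouse of its group for all 3 genes, and for Jchain it lay under the lowest vehicle-treated mouse.

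**Figure D1:**
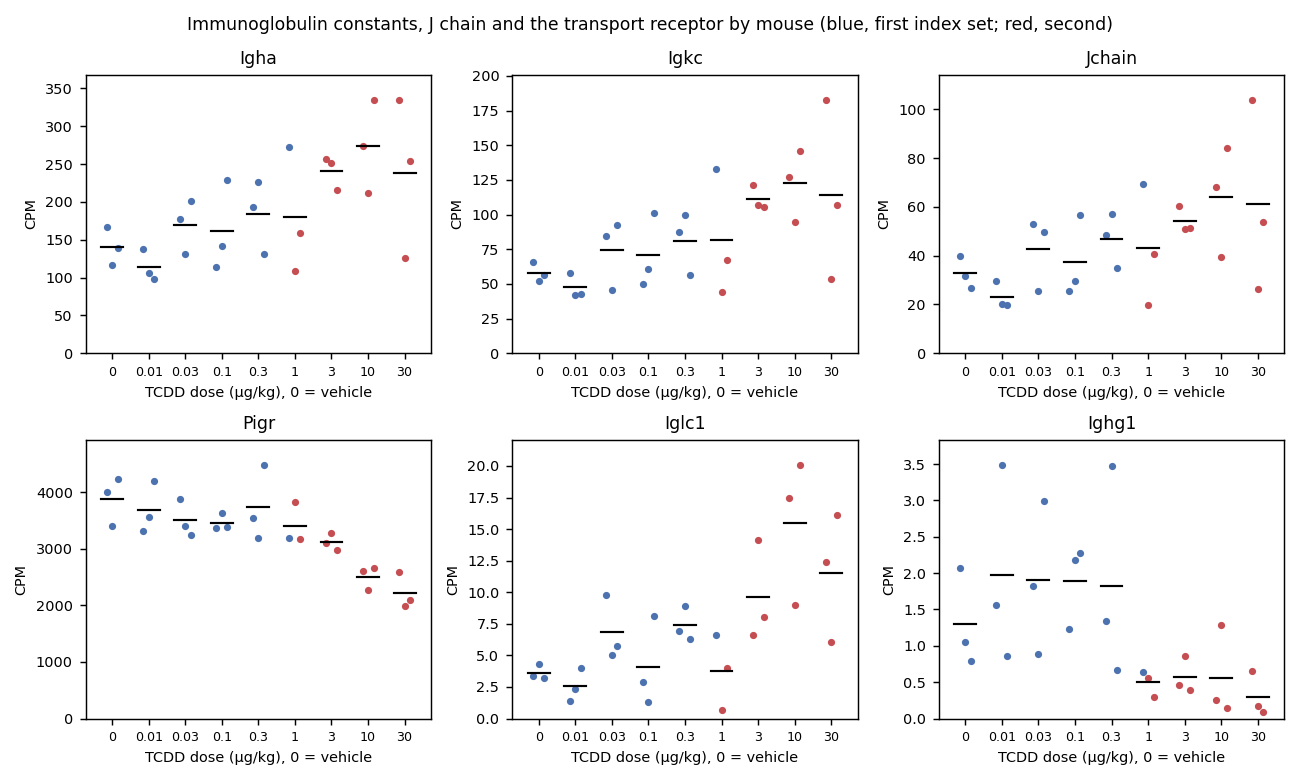
Level in CPM (linear axis from 0) of Igha, Igkc, Jchain, Pigr, Iglc1 and Ighg1 in each of 27 mice by TCDD dose in µg/kg, with 0 for vehicle. Points are mice, blue for the first index set and red for the second, and bars are group means. All 6 mice at 10 and 30 µg/kg lie below the vehicle-treated mice for Pigr, from 1989 to 2661 CPM, and above them for Iglc1.

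Against vehicle, the log2 fold change of Igha was 0.96 ± 0.32 (SE) at 10 µg/kg (edgeR, adjusted p = 0.102) and 0.76 ± 0.32 at 30 µg/kg (adjusted p = 0.125), and neither was called. Igkc reached 1.08 ± 0.38 (adjusted p = 0.118) and 0.98 ± 0.38 (adjusted p = 0.093), and Jchain 0.97 ± 0.43 and 0.91 ± 0.43. Without replicate 2 at 30 µg/kg Igha was 1.07 at an adjusted p of 0.0401 and Igkc 1.32 at 0.0309, so that both were called, while leaving out any 1 of the other 5 mice compared gave no call. That mouse had the lowest values of both genes in its group. Both were also called at 30 µg/kg with the index set as a term, where the log2 fold change was 1.79 for Igha (0.0446) and 2.23 for Igkc (0.0322). At 10 µg/kg they were called without the filter on low counts (0.0298 and 0.039) and in a fit of only the 2 groups (0.0308 and 0.0154). Ighm had a log2 fold change of -0.16 ± 0.58 at 30 µg/kg and Ighd one of 0.03 ± 0.84, and neither passed the test at any dose. In bulk tissue, more cells of a type and more RNA per cell cannot be told apart, and this holds for every result here.

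Iglc1 was the constant gene that passed the test at 10 µg/kg. It stood at 3.34, 4.32 and 3.24 CPM with vehicle, at 6.62, 14.2 and 8.07 CPM at 3 µg/kg, at 17.5, 8.99 and 20.1 CPM at 10 µg/kg, and at 12.4, 6.02 and 16.1 CPM at 30 µg/kg. None of these 9 treated mice overlapped the vehicle group, while of the 15 mice from 0.01 to 1 µg/kg 8 were above it and 5 below. The log2 fold change was 2.096 ± 0.548 at 10 µg/kg (adjusted p = 0.036), a 4.27-fold rise, and 1.66 ± 0.55 at 30 µg/kg (adjusted p = 0.0535), where it was not called. At 30 µg/kg it was called without the filter on low counts (0.0143), with the Hox score as a term (0.0241), in a fit of only the 2 groups (0.0307) and without replicate 2 at 30 µg/kg (0.04). Its call at 10 µg/kg was lost without any 1 of 5 of the 6 mice compared, the exception being replicate 2 at 10 µg/kg, with adjusted p-values from 0.087 to 0.123. The call at 10 µg/kg was also lost in limma voom (adjusted p = 0.0553) and with its posterior of at least 0.8.

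Iglc2 and Iglc3, the other lambda constant genes, did not pass the test. Iglc2 had 1.87, 0.211 and 4.22 CPM with vehicle and 3.74, 0.669 and 0.862 CPM at 30 µg/kg, and the groups overlapped. The log2 fold change of Iglc3 was -1.28 ± 0.67 at 10 µg/kg and -0.88 ± 0.64 at 30 µg/kg. As a share of lambda constant CPM, Iglc1 made up 49.1 ± 15.9% (SD, n = 3) with vehicle, 80.9 ± 10.8% at 3 µg/kg, 83.8 ± 2.42% at 10 µg/kg and 81.85 ± 12.65% at 30 µg/kg, with no test.

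The IgG1 chain Ighg1 was lower at 30 µg/kg but was not called at any dose. The mice given vehicle had 2.07, 1.05 and 0.785 CPM, those at 10 µg/kg 0.256, 1.28 and 0.149 CPM, and those at 30 µg/kg 0.647, 0.167 and 0.0862 CPM, which is 12 counts in all against 39 with vehicle. The 3 mice at 30 µg/kg were below every vehicle-treated mouse, whereas replicate 2 at 10 µg/kg lay within their range. The log2 fold change at 30 µg/kg was -2.01 ± 0.82 with an adjusted p of 0.113. As a share of Igha CPM, Ighg1 was 0.902 ± 0.337% with vehicle and 0.120 ± 0.0806% at 30 µg/kg.

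Pigr, the epithelial receptor that moves IgA into the lumen, fell. Its levels were 4006, 3411 and 4231 CPM with vehicle, 3095, 3273 and 2973 CPM at 3 µg/kg, 2605, 2268 and 2661 CPM at 10 µg/kg, and 2584, 1989 and 2102 CPM at 30 µg/kg. The 9 mice at these doses were below the lowest vehicle-treated mouse, and of the 15 mice at lower doses 8 were. The log2 fold change was -0.63 ± 0.13 at 10 µg/kg (adjusted p = 0.00893), a 1.55-fold fall, and -0.80 ± 0.13 at 30 µg/kg (adjusted p = 0.000481), a 1.75-fold fall. The call at 30 µg/kg held without any 1 mouse, with adjusted p-values up to 0.00488. The call at 10 µg/kg was lost without vehicle replicate 3 (adjusted p = 0.0527) and without replicate 2 at 10 µg/kg, where the fold was under 1.5 (log2 fold change -0.56). It was also lost with the index set as a term (-0.76, adjusted p = 0.122), as were those of the other 6 members called at that dose (0.0664 to 0.132), while the Pigr call at 30 µg/kg was kept (0.0314).

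The promoter of Pigr is shown because this gene had the smallest p among the members at the top dose. The 250 bases before its start (RefSeq, GRCm38.p6, chr1:130826434-130826683, plus strand) were searched on both strands for GCGTG, the core of the dioxin response element to which AhR binds, and for the E-box CACGTG. Capitals mark the E-box.
Pigr: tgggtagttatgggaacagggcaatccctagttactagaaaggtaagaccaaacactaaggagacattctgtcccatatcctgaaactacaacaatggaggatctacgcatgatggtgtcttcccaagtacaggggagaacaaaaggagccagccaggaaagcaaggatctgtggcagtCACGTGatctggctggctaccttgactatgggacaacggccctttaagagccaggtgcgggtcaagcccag
It held no GCGTG and 1 E-box, which begins 71 bases before the start. Among 32851 promoter windows of this length 28.2% held GCGTG and 6.02% held CACGTG. The windows of Jchain and Tnfrsf17 held neither.

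Pigr and Igha were also set against each other in each mouse. Pigr CPM per Igha CPM was 27.9 ± 3.42 (SD, n = 3) with vehicle, 12.96 ± 0.890 at 3 µg/kg, 9.39 ± 1.38 at 10 µg/kg and 10.6 ± 4.52 at 30 µg/kg. By contrast, Igkc per Igha was 0.415 ± 0.0241 with vehicle and 0.464 ± 0.0714 at 30 µg/kg, and Jchain per Igha was 0.234 ± 0.0397 and 0.244 ± 0.0583, differences within the spread between mice.

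By class, the summed heavy constant level was 149 ± 28.0 CPM with vehicle, 247 ± 23.7 at 3 µg/kg, 279.9 ± 62.6 at 10 µg/kg and 245 ± 109 at 30 µg/kg. The kappa constant level was 58.04 ± 7.15 CPM with vehicle and 114 ± 64.8 at 30 µg/kg, and the lambda constant level 7.65 ± 1.12 and 14.3 ± 6.28 CPM. The V segments followed, with heavy V at 28.4 ± 5.35 CPM and 44.8 ± 21.2 CPM, kappa V at 24.1 ± 3.55 and 43.9 ± 30.0 CPM, and lambda V at 1.96 ± 0.780 and 6.08 ± 1.85 CPM. All immunoglobulin rows together gave 269 ± 44.7 CPM with vehicle, 219 ± 45.1 at 0.01 µg/kg, 460 ± 37.2 at 3 µg/kg, 517 ± 123 at 10 µg/kg and 468 ± 230 at 30 µg/kg. The range over all mice ran from 186 CPM in replicate 3 at 0.01 µg/kg to 694 CPM in replicate 1 at 30 µg/kg.

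**Figure D2:**
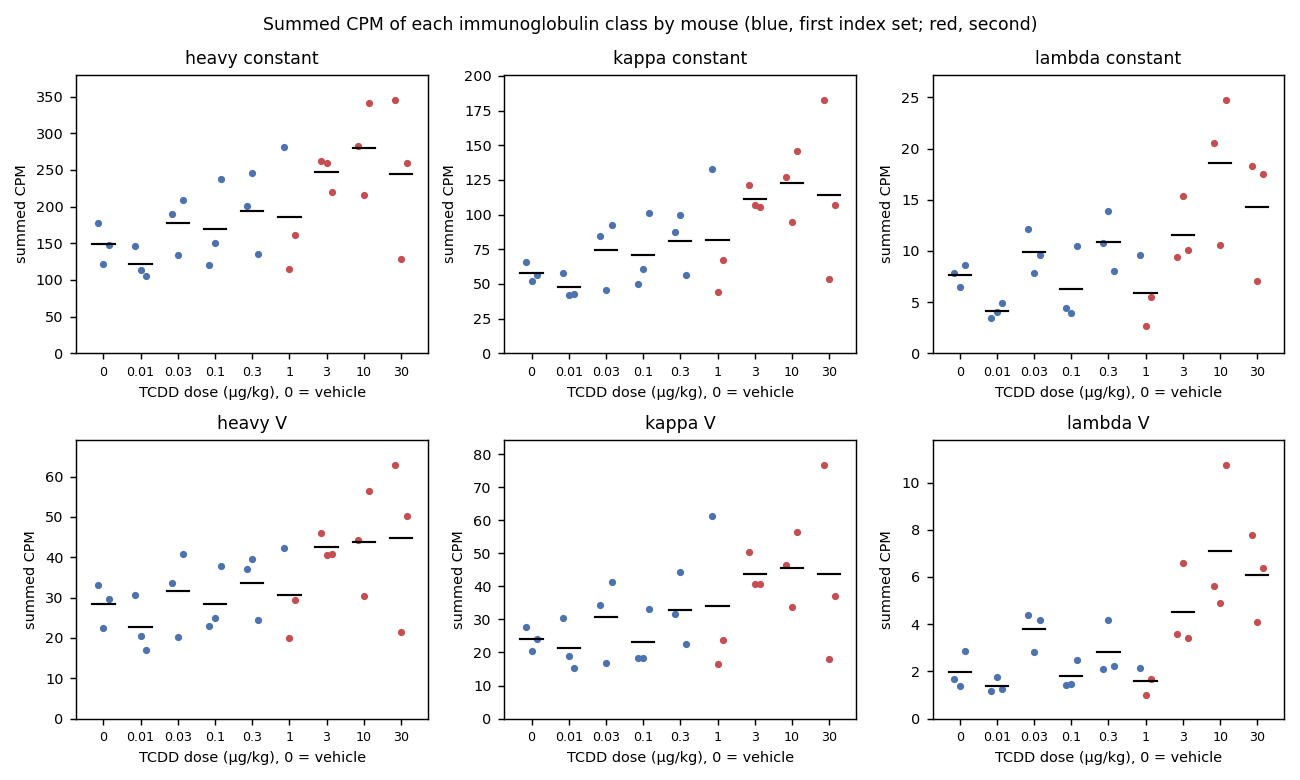
Summed CPM (linear axis from 0) of the 6 immunoglobulin classes in each of 27 mice by TCDD dose in µg/kg, with 0 for vehicle. Points are mice, blue for the first index set and red for the second, and bars are group means. Replicate 2 at 30 µg/kg is the lowest of its group in each class, and over all classes the total is 269 ± 44.7 CPM with vehicle and 460 ± 37.2 CPM at 3 µg/kg.

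The lambda share of light chain constant CPM was 11.7 ± 1.39% with vehicle and 11.6 ± 2.49% at 30 µg/kg. Between these groups it moved without order, from 6.65 ± 0.885% at 1 µg/kg to 12.8 ± 2.45% at 10 µg/kg. The share was alike in the vehicle group and at the top dose, while Iglc1 made up a larger part of the lambda constant level there.

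Of the 93 members 88 had enough counts for the test across all genes, and Tnfrsf17, Igkv16-104, Igkv4-68, Ighv1-74 and Ighv11-2 did not. At 0.01, 0.03, 0.1 and 0.3 µg/kg no member was called, and no gene of the whole table was (0% of 16496). The number of members with an unadjusted p under 0.05 was 6, 7, 3 and 11, and over all genes 1047, 766, 1051 and 856. DESeq2 and limma voom called no member at these doses either. At 1 and 3 µg/kg no member passed in edgeR, with 9 and 18 at an unadjusted p under 0.05, while over all genes 0.139% were called higher and 0.0606% lower at 1 µg/kg, and 0.303% and 0.394% at 3 µg/kg. DESeq2 called 1 member of 88 at 3 µg/kg (1.2% of all genes in either direction). An edgeR fit of only the vehicle and 3 µg/kg mice, in which 38 members had enough counts, called 8 (1.56% of all genes).

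At 10 µg/kg 5 members were called higher (5.68% of 88, against 0.812% of all genes) and 2 lower (2.27%, against 0.97%). The 5 were Iglc1 and the V segments Iglv1, Ighv1-53, Igkv8-27 and Ighv1-26, and the 2 were Pigr and Ighv7-3. At 30 µg/kg 4 members were higher, Ighv1-26, Igkv8-27, Iglv1 and Igkv12-44 (4.55%, against 2.95% of all genes), and Pigr alone was lower (1.14%, against 3.21%). The share at 30 µg/kg was near that of all genes. A V segment could meet the count minimum through the mice in which it was high, so these counts are no measure of the V segments as a whole. The 160 immunoglobulin rows under the minimum summed to 13.98 ± 1.45 CPM with vehicle, 16.44 ± 5.10 at 10 µg/kg and 18.74 ± 13.27 at 30 µg/kg, and the groups overlapped.

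**Figure D3:**
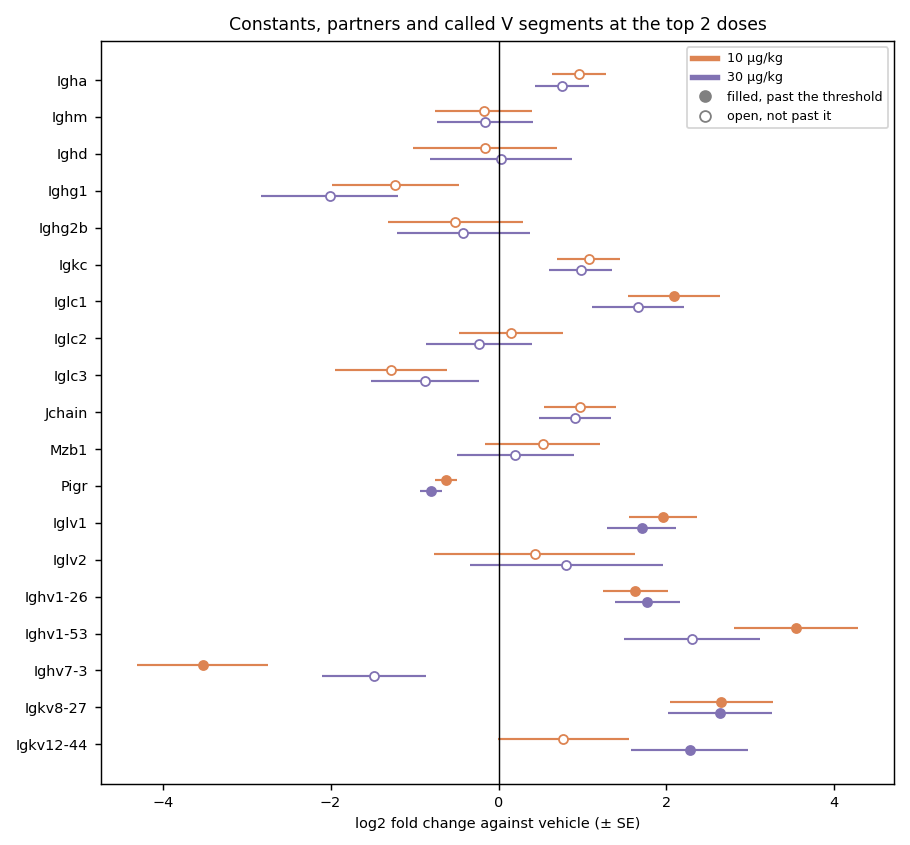
Log2 fold change against vehicle with its SE (horizontal axis) for the constant genes, Jchain, Mzb1, Pigr, the lambda V segments and the V segments called at a dose, at 10 µg/kg (orange) and 30 µg/kg (purple). Filled points passed the threshold and open points did not. Pigr has the narrowest error, 0.13 at either dose, and lies below 0, while Ighv1-53 and Ighv7-3 are the most distant at 10 µg/kg, at 3.55 and -3.53.

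Iglv1, the lambda V segment that pairs with Iglc1, was also higher at the top doses. It had 1.48, 1.27 and 2.45 CPM with vehicle, 2.02, 6.52 and 3.18 CPM at 3 µg/kg, 5.63, 4.79 and 9.92 CPM at 10 µg/kg, and 6.90, 4.01 and 6.12 CPM at 30 µg/kg. The 6 mice at 10 and 30 µg/kg were above the vehicle group, while replicate 1 at 3 µg/kg lay within it, and of the 15 mice from 0.01 to 1 µg/kg 4 were above it and 4 below. Its log2 fold change was 1.96 ± 0.41 at 10 µg/kg (adjusted p = 0.00861) and 1.71 ± 0.41 at 30 µg/kg (adjusted p = 0.01). The call at 10 µg/kg was lost without vehicle replicate 2 (adjusted p = 0.0513) and without replicate 3 at 10 µg/kg (0.0596), and that at 30 µg/kg without vehicle replicate 1 (0.0504). With the index set as a term neither call was kept (0.102 and 0.0788), nor was either with a limma voom posterior of at least 0.8. Iglv2 held no count in 4 mice and had a log2 fold change of 0.81 ± 1.15 at 30 µg/kg.

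Ighv1-26 was the most abundant heavy V segment, with a mean of 3.09 CPM, and the leading one in 9 of 27 mice. It stood at 2.17, 1.58 and 1.67 CPM with vehicle, 4.32, 4.63 and 3.49 CPM at 3 µg/kg, 6.49, 2.48 and 7.83 CPM at 10 µg/kg, and 7.41, 3.35 and 7.84 CPM at 30 µg/kg. The mice at these 3 doses were all above the vehicle group. The log2 fold change was 1.63 ± 0.39 at 10 µg/kg (adjusted p = 0.0211) and 1.77 ± 0.39 at 30 µg/kg (adjusted p = 0.00538). Its share of heavy V counts went from 6.40 ± 0.692% with vehicle to 14.3 ± 2.20% at 30 µg/kg. The call at 30 µg/kg held without any 1 mouse (adjusted p up to 0.0273), and that at 10 µg/kg was lost without any 1 of the 6 mice except replicate 2 at 10 µg/kg, with adjusted p-values from 0.0533 to 0.114. In limma voom the call at 10 µg/kg was lost (adjusted p = 0.0833), and with its posterior of at least 0.8 both calls were.

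Igkv8-27 was the most abundant kappa V segment at 3.02 CPM and led in 7 mice. It stood at 0.886, 1.16 and 0.883 CPM with vehicle, 7.26, 6.09 and 2.48 CPM at 3 µg/kg, 7.68, 2.40 and 8.43 CPM at 10 µg/kg, and 7.12, 3.01 and 8.19 CPM at 30 µg/kg. No mouse at these doses overlapped the vehicle group, while of the 15 mice from 0.01 to 1 µg/kg 10 were above it and 3 below. The log2 fold change was 2.66 ± 0.62 at 10 µg/kg (adjusted p = 0.0185) and 2.64 ± 0.62 at 30 µg/kg (adjusted p = 0.00885). Its share of kappa V counts was 4.17 ± 1.29% with vehicle and 16.1 ± 6.44% at 30 µg/kg. The call at 30 µg/kg held without any 1 mouse (adjusted p up to 0.0429), and that at 10 µg/kg was lost without 5 of the 6 mice, again all but replicate 2 at 10 µg/kg, at 0.0536 to 0.0801. In limma voom the call at 10 µg/kg was lost (adjusted p = 0.0919), and with its posterior of at least 0.8 both calls were.

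The other called V segments rested on few counts. Ighv1-53 had 5 counts over the vehicle-treated mice, none of them in replicate 1, and 76 over the mice at 10 µg/kg, a log2 fold change of 3.55 ± 0.74 (adjusted p = 0.00892). Of the 15 mice from 0.01 to 1 µg/kg 14 were also above the highest vehicle-treated mouse at 0.295 CPM, so the vehicle group was the one that stood apart, and without vehicle replicate 1 the call was lost (adjusted p = 0.0538). Ighv7-3 went from 50 counts with vehicle to 5 at 10 µg/kg, a log2 fold change of -3.53 ± 0.78 (adjusted p = 0.014), and to 22 at 30 µg/kg, where 15 of them came from 1 mouse. Of the 15 mice from 0.01 to 1 µg/kg 11 were also below the lowest vehicle-treated mouse and none was above the highest. Its call was lost without vehicle replicate 1 (0.0852) and without replicate 2 at 10 µg/kg (0.0605). Igkv12-44 had 14 counts with vehicle and 89 at 30 µg/kg, 58 of them in 1 mouse, and a log2 fold change of 2.28 ± 0.70 (adjusted p = 0.0369), and was lost without vehicle replicate 1, vehicle replicate 2, or replicate 1 or 3 at 30 µg/kg (0.068 to 0.204), and with the index set as a term (0.169).

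The slope over dose rank, from 0 for vehicle to 8 for 30 µg/kg, asks whether a level changes steadily along the series, and only the adjusted p was used to call it. It called 21 of 88 members higher (23.9%, against 11.8% of all genes) and 3 lower (3.41%, against 11.6%). Among the constant genes and partners Igkc rose by 0.15 ± 0.03 log2 units per dose step (adjusted p = 0.000748), Igha by 0.13 ± 0.03 (0.000942), Iglc1 by 0.26 ± 0.05 (0.000977) and Jchain by 0.14 ± 0.04 (0.00511). Ighg1 fell by 0.30 ± 0.07 per step (0.00377) and Pigr by 0.09 ± 0.01 (8.96e-05). Of the V segments 17 were called higher and 1 lower, Ighv7-3, and the smallest p-values were those of Ighv1-26, Igkv8-27, Iglv1, Igkv4-59 and Igkv12-44, at 0.25 to 0.40 per step. Here too a V segment could meet the count minimum through the mice in which it was high, and Igkv4-59 reached it in 3 libraries alone, of mice at 10 and 30 µg/kg, so its slope is a description.

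Most calls on the slope were lost within the index sets. With the index set as a term no member kept its call, and 0.0667% of all genes were called in either direction. The slopes themselves were 0.17 for Igha (adjusted p = 0.118), 0.21 for Igkc (0.0955), 0.22 for Jchain (0.119) and -0.08 for Pigr (0.149), close to or beyond those without the term, while that of Ighg1 was -0.04 (0.922). In the 16 mice of the first set no member was called, where the slope of Igha was 0.16 (adjusted p = 0.519) and that of Ighg1 was -0.02 (0.986). In the 11 mice of the second set Pigr was called at -0.23 per step (0.0117), with Igkv4-59, which met the count minimum only through mice at 10 and 30 µg/kg, and Ighv9-3, beside 3.06% of all genes called in either direction, while Igha was at 0.22 (0.326) and Iglc1 at 0.55 (0.213). At 1 µg/kg, the dose that held both sets, the mouse of the first set had 273 CPM of Igha and the 2 of the second had 109 and 158 CPM. In the slope fit the set term drew on all 27 mice. The 2 highest doses lie wholly in the second set and vehicle in the first. In the fit of the 9 groups the set term can therefore be fitted only through the 3 mice at 1 µg/kg. With it, 8 of 88 members were called at 30 µg/kg (4.43% of all genes in either direction), namely Pigr (log2 fold change -0.93), Igha, Igkc, Ighv1-26 (2.52), Igkv8-27 (3.82), Ighv3-6, Igkv5-43 and Igkv10-94. Igkv5-43 alone was called at 10 µg/kg (0.352% of all genes) and at 1 µg/kg (0.0727% of all genes). Ighv3-6 and Igkv5-43 are named for their level, and Igkv10-94 was named after its value was seen.

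Within the second set, 30 was compared with 3 µg/kg. No member was called in edgeR, and 10 had an unadjusted p under 0.05, while 0.218% of all genes were called higher and 0.242% lower. Pigr had the log2 fold change -0.48 ± 0.13 with an adjusted p of 0.098. Igha stood at -0.02 ± 0.32, Igkc at 0.04 ± 0.37, Jchain at 0.18 ± 0.42 and Iglc1 at 0.26 ± 0.50, so that no difference in these genes was detectable between these doses, and limma voom and the other alternatives called no member either, except for 1 without replicate 1 at 30 µg/kg.

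Across mice, Igha and its partner chains varied together. Over 27 mice the log2 CPM of Igha and Igkc had r = 0.986 and rho = 0.987, and that of Igha and Jchain r = 0.959 and rho = 0.952 (permutation p = 1e-05 for each, the smallest that 100000 permutations can give, adjusted p = 4e-05 over 8 relations). These held in the first set (r = 0.98 and 0.956), in the second (r = 0.986 and 0.964), on deviations from the dose group means (r = 0.975 and 0.949), and without the 2 mice farthest from the median of Igha (r = 0.986 and 0.948). The mice with most Igha therefore also held most Igkc and Jchain, within dose groups as well as between them.

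Other relations were weaker. Igha and Mzb1 had r = 0.529 and rho = 0.524 (permutation adjusted p = 0.01 and 0.0092), but r = 0.36 without the 2 mice farthest from the median of Igha, replicate 3 at 10 µg/kg and replicate 1 at 30 µg/kg, where it no longer passed (adjusted permutation p = 0.1). In the first set, which holds neither mouse, r was 0.671 (permutation p = 0.0048), in the second 0.579, which did not pass (permutation p = 0.064), and on deviations from the group means 0.532 (permutation p = 0.0043). Tnfrsf17 had r = 0.417 and rho = 0.37 (permutation adjusted p = 0.041 and 0.08), on at most 9 counts, with r = 0.647 in the first set (permutation p = 0.0063), 0.487 in the second (0.13) and 0.641 on deviations from the group means (0.00032). Igha and Ighm had r = 0.32 and rho = 0.336 (permutation adjusted p = 0.12 and 0.098), which did not pass, but r = 0.548 on deviations from the group means, which did (permutation adjusted p = 0.0047). Igha and Pigr had r = -0.501 and rho = -0.611 (permutation adjusted p = 0.012 and 0.0019), but r = -0.438 in the first set (permutation p = 0.09), r = -0.194 in the second (0.57) and r = -0.0444 on deviations from the group means (0.83), so that it did not pass within either set and was near 0 within dose groups.

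Igha also followed Myh11, the smooth muscle gene, with r = 0.6 and rho = 0.627 (permutation adjusted p = 0.0026 and 0.0019), r = 0.728 in the second set and r = 0.678 on deviations from the group means. In the first set r was 0.524, which did not pass (permutation adjusted p = 0.061). The summed level of the 7 smooth muscle markers was 70.6 to 118 CPM with vehicle, 182 to 294.5 CPM at 10 µg/kg and 119 to 680 CPM at 30 µg/kg. None of the 7 was called at either dose, and 4 of them rose along the slope, by which 11.8% of all genes were called higher. With the index set as a term the slope called 0.0667% of all genes in either direction, and values of these markers with it are not given here. The part that the depth of the scraping had in the immunoglobulin levels was not tested.

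**Figure D4:**
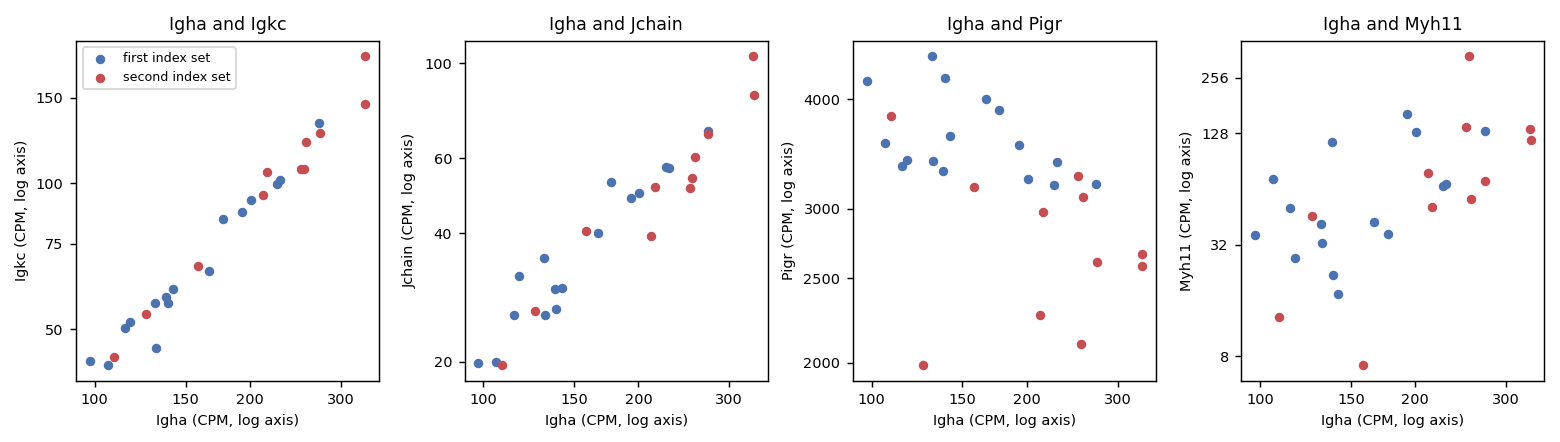
Igha (horizontal, CPM, log axis) against Igkc, Jchain, Pigr and Myh11 (vertical, CPM, log axes) in 27 mice, blue for the first index set and red for the second. Igkc and Jchain lie close to a line (r = 0.986 and 0.959), Pigr runs the other way between sets (r = -0.501), and Myh11 scatters widely (r = 0.6).

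The V segments past the count minimum had a larger spread between mice than other genes. The median biological coefficient of variation from edgeR was 0.626 over 75 V segments, against 0.236 over 4513 other genes in the same range of mean CPM and 0.125 over all genes. A segment could meet the minimum through the mice in which it was high, which can widen this spread. The 4513 genes shared only the outer range of mean CPM, and how far either point matters was not tested. Among the constant genes it was 0.27 for Igha, 0.314 for Igkc, 0.463 for Iglc1 and 0.705 for Ighd, which was above the median of the V segments, and Pigr was at 0.112.

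No single segment dominated a mouse. The largest heavy V share per mouse was 7.69 to 21.02% (median 11.8%) and the largest kappa V share 7.18 to 22.1% (median 13.3%). The effective number of segments, the inverse of the summed squared shares, was 14.2 to 23.6 for heavy V (median 19.7 of 40) and 12.2 to 23.0 for kappa V (median 18.2 of 37). For kappa V it was 20.3, 20.4 and 21.6 in the vehicle-treated mice and 12.2 to 17.5 at 30 µg/kg and 12.9 to 15.7 at 10 µg/kg, with no overlap and no test. Other mice were as low, such as replicate 3 at 0.03 µg/kg with 12.98 and replicates 2 and 3 at 1 µg/kg with 14.82 and 14.63, and the highest of all, 23.03, was replicate 3 at 3 µg/kg. For heavy V it was 16.8 to 20.9 with vehicle and 15.4 to 18.8 at 30 µg/kg, which overlapped. A total of 12 heavy and 10 kappa segments were the leading one in at least 1 mouse, among them Ighv3-6 in 5 mice, Ighv1-76 in 4, Igkv6-15 in 6 and Igkv5-48 in 4.

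Single mice stood out for single segments. Ighv1-76 made up 21.02% of heavy V counts in replicate 1 at 0.01 µg/kg (66 counts) against a median of 3.61%, and Ighv9-3 20.4% in replicate 3 at 0.03 µg/kg (100 counts) against 3.87%. In that same mouse Igkv8-24 held 19.5% of kappa V counts (97 counts) against a median of 1.48%, and was at 0 in 3 other mice. The 5 segments with the largest ratio of highest to median share were Igkv8-28 (18.3), Ighv3-5 (17.7), Igkv8-24 (13.2), Igkv14-100 (11.7) and Igkv4-68 (10.1), of which all but Igkv8-24 had fewer than 50 counts in their highest mouse. In all, 16 of 40 heavy and 15 of 37 kappa segments reached 5 times their median share in some mouse, and the highest shares were spread over 21 and 23 of the 27 mice. Some of these rested on few counts in the highest mouse, such as Igkv15-103 with 7 and Ighv3-1 with 11. The ratios take the highest of 27 mice and have no baseline for counting error, so the part of counting error in them was not tested.

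**Figure D5:**
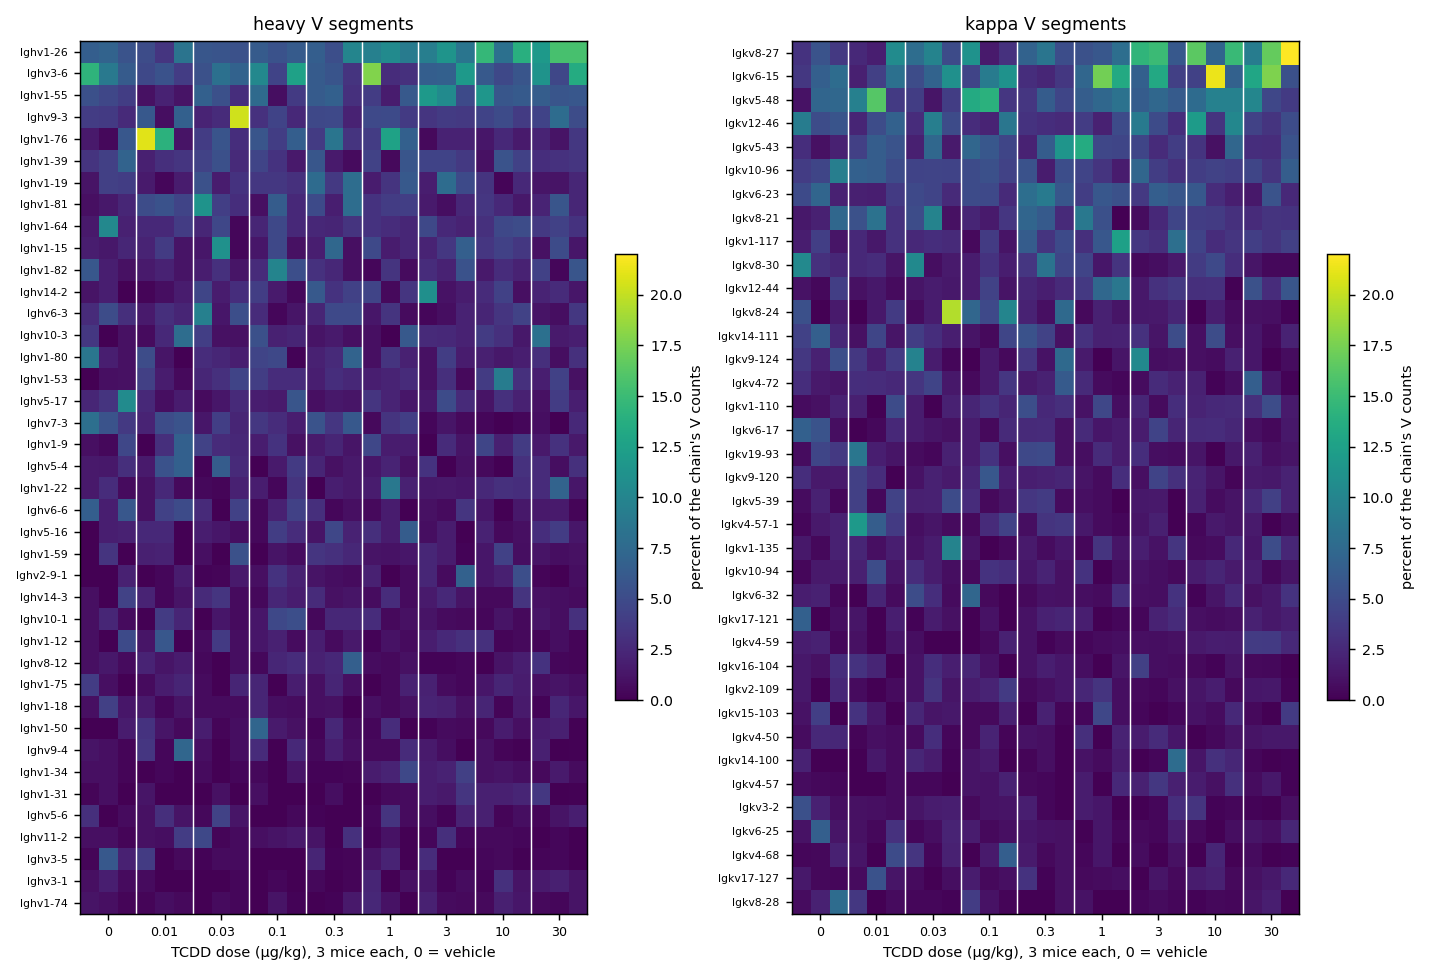
Share of each heavy V segment (left) and kappa V segment (right) in the V counts of its chain, in percent (colour, 0 to 22), for 27 mice in columns ordered by TCDD dose in µg/kg, with 3 mice a dose and segments in rows ordered by mean level. Ighv1-26 and Igkv8-27, the top rows, are brightest in mice at 10 and 30 µg/kg, and isolated bright cells such as Ighv9-3 at 20.4% mark single mice.

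The makeup of V segments was also compared between mice. With V counts thinned to the smallest library, 178 heavy and 150 kappa counts per mouse, the median Bray-Curtis distance (0 for the same makeup, 1 for no shared segment) of heavy V was 0.393 over 27 pairs within a dose and 0.427 over 324 pairs between doses. For kappa V it was 0.4 and 0.427. Between vehicle and 30 µg/kg the median was 0.449 for heavy V and 0.5 for kappa V. For kappa V the pairs within the vehicle group ran from 0.387 to 0.46 and those within 30 µg/kg from 0.347 to 0.42, while pairs within any dose reached 0.553. For heavy V the pairs within the vehicle group ran from 0.399 to 0.466 and those within 30 µg/kg from 0.320 to 0.382, while pairs within any dose reached 0.522. These distances share mice and were not tested, and at this depth part of each is counting error.

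Genes of the cells that make or precede IgA plasma cells were taken from lists of other markers. Of 14 tested plasma cell genes none was called at 10 or 30 µg/kg, with medians of 0.13 and 0.18 on the log2 scale beside -0.01 and -0.00 over all genes. Along the slope, which called 11.8% of all genes higher, 3 of 14 rose, Jchain (not with the index set as a term, adjusted p = 0.119), Ell2 and Xbp1, of which Xbp1, the factor of the secretory programme, gained only 0.02 ± 0.01 per step (adjusted p = 0.0407) and Ell2, an elongation factor that favours the secreted form of antibody RNA, 0.05 ± 0.01 (0.00313). Both are also made by epithelial cells. Their slopes with the index set as a term, which left 0.0667% of all genes called in either direction, are not given here.

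At 30 µg/kg, where 3.21% of all genes were called lower, 1 of 11 tested B cell genes fell, Spib, a transcription factor of B cells, by 1.13 ± 0.27 on the log2 scale (adjusted p = 0.0106). The 14 genes of the list summed to 15.7 to 26.6 CPM with vehicle and 9.37 to 22.6 CPM at 30 µg/kg. Of 6 tested germinal centre and follicle genes 3 fell, namely Rgs13, a regulator of G protein signals, by 2.32 ± 0.42 (0.00127), Mybl1 by 1.17 ± 0.37 (0.0408) and Bcl6, the repressor that germinal centre B cells need, by 0.81 ± 0.19 (0.00973). Cxcl13, the chemokine of B cell follicles, had a log2 fold change of 0.58 ± 0.48 and was not called. Rgs13 had 3.64, 3.90 and 5.79 CPM with vehicle and 0.863, 0.585 and 1.21 CPM at 30 µg/kg. Rgs13 and Spib are also genes of tuft and M cells of the epithelium. Which cells carried these falls was not tested.

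None of the tested genes that induce IgA (6 of 10 listed) was called at 10 or 30 µg/kg. Among genes that guide plasma cells to the gut, 1 of 9 tested was called higher at 30 µg/kg, where 2.95% of all genes were, namely S1pr1, a receptor for egress of lymphocytes that vessels also make, which rose by 1.68 ± 0.50 (adjusted p = 0.0338). Ccl28, the epithelial chemokine for IgA plasma cells, had 189, 131 and 136 CPM with vehicle and 141, 106 and 89.3 CPM at 30 µg/kg, with overlap. Of 6 tested immunoglobulin receptors Pigr alone was called. Among markers of other cells of the wall, C1qc of macrophages (1.22 ± 0.34, 1 of 7 tested), Dcn of fibroblasts (1.51 ± 0.47, 1 of 6) and Cfd and Fabp4 of adipocytes (3.03 ± 0.94 and 2.50 ± 0.81, 2 of 4) rose at 30 µg/kg, and none of the T cell or epithelial markers was called at this dose. Along the slope, which called 11.8% of all genes higher, 5 of 7 epithelial, 2 of 7 macrophage and 1 of 6 fibroblast markers were called higher. Their slopes with the index set as a term, which left 0.0667% of all genes called, are not given here. The adipocyte markers summed to 1.48 to 15.8 CPM with vehicle and 14.8 to 153 CPM at 30 µg/kg, but also to 47.9 to 97.3 CPM at 0.01 µg/kg, and none of them was called along the slope. Their part in the immunoglobulin values was not tested.

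Ighmbp2, the helicase gene that the letters of the rule also catch, ran from 8.27 to 12.7 CPM and had a log2 fold change of 0.11 ± 0.15 at 30 µg/kg, with no call at any dose.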

How the data were processed

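RNA of the colonic epithelium of 27 mice was sequenced by the authors, who deposited 1 table of raw read counts per mouse, in whole numbers and without normalization. The submitters' processing notes name Trimmomatic 0.33, TopHat2 2.1.0, HTSeq 0.6.1 and the build GRCm38. The strand setting is not given in the sources used here. The last lines of each table, which stand for reads without a gene, were not used: reads on no feature made up 29.1 to 33.3% of a table and reads with several alignments 30.7 to 37.1%.

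Symbols, exon lengths and sequences came from GENCODE M21 (GRCm38), and 45143 of 46078 rows matched a symbol. Genes were kept by filterByExpr (edgeR 4.0.16, R 4.3.3, minimum count 10), scaled by TMM and fitted with all 9 groups together by glmQLFit, with adjusted p under 0.05 and a fold of at least 1.5 as threshold. Alternatives were RLE factors, DESeq2 1.42.0, limma 3.58.1 (voom, also a posterior of at least 0.8), no filter, library sizes without immunoglobulin rows, an index set term, a Hox score term (first component of 25 Hox genes), only the 2 groups compared, and each mouse left out. Correlations used log2 CPM with a prior count of 2 and were adjusted over 8 relations, of which 1 is not reported here. The fits were tested on simulated counts. Replicate numbers follow accession order and only name mice, and no 2 mice of a group agreed within sampling noise, so each counted as 1 replicate. Intervals and SEs cover these mice, and a single count covers counting error only.

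Named were the constant genes, the 4 partners, the V segments highest in level (5 heavy, 5 kappa, 2 lambda), those called (the 5 smallest p for the slope), the 5 with the largest ratio of highest to median share, and listed genes called at 30 µg/kg. The rule on level also covers Ighv1-55, with a mean of 1.96 CPM, and Igkv12-46, with 1.81 CPM, for which no other level is given here. Members and lists were chosen with earlier results of these data known.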

Additional observations from a re-analysis of the deposited data

Results flagged for a closer look

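The 133 immunoglobulin pseudogene rows, which entered no comparison, held few counts, and at 3 µg/kg all 3 mice were above every vehicle-treated mouse. Their summed level there was 0.527 ± 0.220 CPM (SD, n = 3), from 0.276 to 0.686 CPM, which is 3 to 8 counts per mouse, against 0 to 0.196 CPM and at most 2 counts with vehicle. At 30 µg/kg the mean was 0.363 CPM with 2 to 8 counts per mouse, and the groups overlapped. The difference was not tested, and the other groups of 3 mice were too small for a search for single distant mice.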

How the results depend on the processing

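No paired analysis was possible because the replicate numbers follow accession order and only name mice. Of the values recomputed under the alternatives 866 were tallied as kept, 107 lost a call or fell in number, 35 gained one or rose, and 4 moved with no test. Kept means the same direction and side of the threshold, but smaller shifts in a number of members were also tallied as kept. The limit for such a shift is not given here. For the slope they covered 21 to 27 members without 1 mouse, against 21 higher and 3 lower with all mice. At 10 µg/kg each left-out mouse lowered the number from 5 higher and 2 lower, yet not every such fall is among the 107. No called value changed sign. With the index set as a term the number of members called was 1 at 1 µg/kg, 1 at 10 µg/kg, 8 at 30 µg/kg and 0 for the slope. The slope called 0 in the first set and 3 in the second. With the Hox score as a term 4 were called at 3 µg/kg and 8 at 30 µg/kg, and without the filter on low counts 1 and 8. At 3 µg/kg a fit of only the 2 groups called 8 and DESeq2 1. At 10 µg/kg limma voom called 4. A posterior of at least 0.8 left 1 at 10 µg/kg and 1 at 30 µg/kg, Pigr at either dose, so that no immunoglobulin gene kept its call there. Leaving out each mouse gave 0 to 1 at 3 µg/kg, 2 to 5 at 10 µg/kg (2 without vehicle replicate 1), 3 to 10 at 30 µg/kg (10 without replicate 2 at 30 µg/kg) and 0 to 1 for 30 against 3 µg/kg. The share of all genes called is not given here for the Hox score, the filter, limma voom, the posterior and the left-out mice. Those numbers of members therefore cannot be set against all genes. The cause of these shifts was not tested.

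Among correlations with Igha, Mzb1 had r = 0.36 without the 2 farthest mice and 0.579 in the second set, and Tnfrsf17 0.487 in the second set and 0.405 with a prior count of 0.5. Pigr had -0.438 in the first set, -0.194 in the second and -0.044 on deviations from the group means, where Ighm had 0.548 and passed. Myh11 had 0.524 in the first set. Apart from Ighm, these did not pass. The median effective number fell to 4.15 heavy and 6.51 kappa segments with a minimum of 30 counts in 3 libraries, which keeps fewer segments, and was 25.63 and 23.81 by Shannon entropy. Depth limits the V segments, with 178 to 874 heavy V counts per mouse, and more so Tnfrsf17, with 0 to 9 counts, and Mzb1, with 1 to 21.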
